A study of Homo sapiens with 7 samples.

Results

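The genes described here are 43 genes of DNA replication in HSC-3, a human cell line established from an oral squamous carcinoma. They were chosen by function, but with earlier results of these data known. They are subunits of the machinery that licenses and fires replication origins and copies DNA, enzymes that supply deoxynucleotides, and the transcription factor E2F1. Some subunits of the same complexes, such as ORC4 and POLD2, are left to a separate list described below. All 43 had a value among the 19775 genes measured. Each gene was read by 1 probe set (a group of short probes for 1 transcript), the brightest of those listed for that gene alone. Heat was given for 90 min, at 44 °C or at 42 °C. Heated cells were collected 0, 6 or 12 h after return to 37 °C, and control cells were kept at 37 °C without heat. RNA of each of these 7 conditions was put on 1 Affymetrix U133 Plus 2.0 array. Every difference below is therefore between a pair of arrays, has no replicate check and carries no p-value.

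Replication is prepared in G1 phase, when the origin recognition complex (ORC) with CDC6 and CDT1 loads the MCM2-7 helicase onto DNA. In S phase the kinase CDC7 and the factors CDC45, MCM10 and GINS turn the loaded helicase into an active one, and DNA polymerases extend primers with the help of the sliding clamp PCNA. Many of these genes are transcribed at the border of G1 and S phase by E2F factors once the retinoblastoma protein has released them. In RNA from a whole culture, fewer cells in S phase and less of a transcript per cell cannot be told apart.

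Promoter sequences come first because E2F-type letters were frequent among these genes and played no part in choosing them. RefSeq promoters (GRCh38.p14, 250 bases before to 50 after the start site) were matched for 37 of the 43 genes. Of these, 20 (54.1%) held at least 1 of the letters TTTCCCGC, TTTGGCGC, TTTCGCGC or TTTGCCGC on either strand, against 3.99% of 27305 genes with a promoter of the same length. The letters CCAAT were found on either strand in 22 of the 37 (59.5%), against 39.7% of all genes. A heat shock element, searched on either strand as the letters GAA, TTC and GAA in a row with 2 bases of any kind between them, was found in 0 of the 37, against 0.608% of all genes. A match is a run of letters in this window, and binding was not measured. The first 4 promoters below belong to genes with a match that were lower at 42 °C, 6 h than in the control. FEN1, with no match, fell at 44 °C, 12 h and was lower than in the control at 42 °C, 6 h too. CDC6, MCM7 and LIG1, not shown, have a match too and were higher at 42 °C, 6 h. Capitals mark the E2F-type matches, of which MCM6 has 4 that overlap in pairs and GINS2, CDT1 and POLA1 have 1 each.
MCM6 (chr2:135876394-135876693, minus strand): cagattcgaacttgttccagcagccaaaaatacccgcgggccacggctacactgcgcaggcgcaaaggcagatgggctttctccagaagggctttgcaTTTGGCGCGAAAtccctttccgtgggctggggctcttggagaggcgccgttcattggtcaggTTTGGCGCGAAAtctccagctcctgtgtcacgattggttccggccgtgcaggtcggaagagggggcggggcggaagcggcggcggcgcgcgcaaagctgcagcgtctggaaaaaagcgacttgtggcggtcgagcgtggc
GINS2 (chr16:85688905-85689204, minus strand): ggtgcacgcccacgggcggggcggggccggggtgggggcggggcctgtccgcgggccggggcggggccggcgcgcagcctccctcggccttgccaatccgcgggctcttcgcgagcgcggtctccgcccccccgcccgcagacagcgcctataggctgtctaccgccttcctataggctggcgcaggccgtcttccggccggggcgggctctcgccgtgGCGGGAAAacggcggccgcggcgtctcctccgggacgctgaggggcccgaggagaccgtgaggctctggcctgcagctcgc
CDT1 (chr16:88803539-88803838, plus strand): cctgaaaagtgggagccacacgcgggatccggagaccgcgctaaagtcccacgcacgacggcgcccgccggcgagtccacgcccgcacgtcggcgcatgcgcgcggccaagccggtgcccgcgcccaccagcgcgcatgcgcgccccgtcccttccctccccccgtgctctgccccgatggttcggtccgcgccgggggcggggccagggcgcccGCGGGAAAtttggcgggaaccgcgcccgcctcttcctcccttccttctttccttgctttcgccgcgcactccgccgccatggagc
POLA1 (chrX:24693668-24693967, plus strand): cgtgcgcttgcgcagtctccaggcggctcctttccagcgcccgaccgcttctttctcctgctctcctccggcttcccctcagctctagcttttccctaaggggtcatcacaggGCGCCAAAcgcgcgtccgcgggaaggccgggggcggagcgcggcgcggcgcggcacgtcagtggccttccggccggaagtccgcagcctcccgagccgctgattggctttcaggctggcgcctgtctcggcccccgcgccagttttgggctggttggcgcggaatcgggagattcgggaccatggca
FEN1 (chr11:61792661-61792960, plus strand): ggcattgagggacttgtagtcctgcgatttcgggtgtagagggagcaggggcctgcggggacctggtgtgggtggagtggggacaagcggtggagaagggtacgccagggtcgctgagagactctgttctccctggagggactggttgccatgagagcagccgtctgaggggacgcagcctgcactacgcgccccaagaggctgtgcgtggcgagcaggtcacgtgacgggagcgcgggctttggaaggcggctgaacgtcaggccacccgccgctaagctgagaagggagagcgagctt

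The arrays differed in overall level. The median log2 difference of a heated array from the control, over the 20902 probe sets that were above the floor on all arrays, ranged from -0.35 (44 °C, 12 h) to 0.40 (44 °C, 0 h) as deposited. Values are therefore given after quantile normalization, which gives all arrays the same distribution, unless said otherwise. The words rose and fell are kept for genes that passed 2-fold in the same direction both as deposited and after normalization. The floor was 21.35 intensity units, the median of all deposited values, and a bright gene is one that reached 4 times the floor on either array of a comparison. All 43 genes reached 4 times the floor on at least 1 array, and 42 did so on all 7, the exception being E2F1. The spread between probe sets of the same bright gene was 0.202 to 0.271 log2 units (SD) in the 9 comparisons, which does not cover differences between cultures. The heat shock genes HSPA6 and DNAJB1 were higher than in the control directly after heat, and more so at 42 °C than at 44 °C. HSPA6 read 4099 units at 44 °C, 0 h and 13621 at 42 °C, 0 h and was at the floor in the control. It was at the floor at 42 °C, 12 h as well, so it does not tell that array from the control. All 5 keratinocyte markers with a value were above 4 times the floor on every array. The fibroblast, leukocyte and endothelial markers stayed below it on every array, apart from the fibroblast marker COL1A1 at 138 to 374 units.

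The array at 44 °C, 0 h was most often the highest of the 7 on every scale, while the lowest depended on the scaling. After normalization the array at 44 °C, 0 h held the highest value of 23 genes. The array at 42 °C, 6 h held the lowest value of 21 genes, that at 42 °C, 12 h of 10 and that at 44 °C, 12 h of 7. As deposited 44 °C, 0 h was highest in 37 genes, and the lowest array was 44 °C, 12 h in 22 genes, 42 °C, 12 h in 8 and 42 °C, 6 h in 5. With a median shift 42 °C, 6 h was lowest in 23 genes. Such counts were not made over all genes. As deposited 44 °C, 0 h and 44 °C, 12 h were also the arrays with the highest and lowest overall level (0.40 and -0.35). All 6 comparisons with the control share that 1 array, so they are given side by side and not as repeats of each other.

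**Figure D1:**
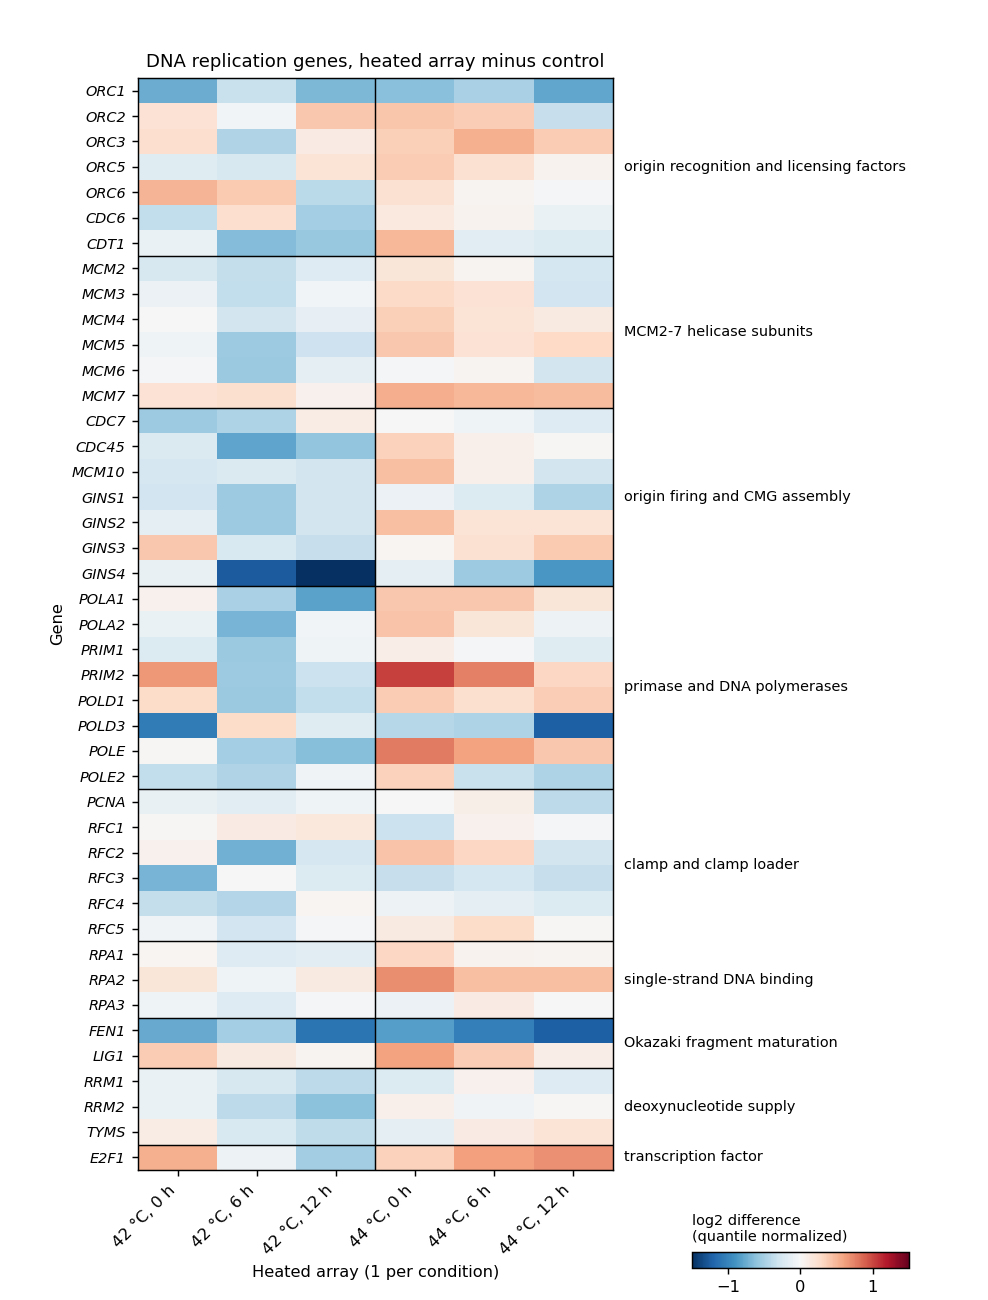
Log2 difference (quantile normalized) of each of the 43 DNA replication genes, grouped by role down the page, on each of the 6 heated arrays from the control array; blue is lower and red is higher. The 42 °C, 6 h column is mostly blue (37 of 43 genes lower, and 23 as deposited) and the 44 °C, 0 h column mostly red (31 of 43 higher, and 40 as deposited), while FEN1 is blue throughout.

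Directly after heat at 42 °C the replication genes stood close to the control, and POLD3 was the 1 gene that fell. POLD3, an accessory subunit of DNA polymerase delta, was 2.07-fold lower. The median difference of the 43 genes was -0.09 log2 units, against 0.00 over 8797 bright genes, and as deposited it was -0.12 against -0.11. With a median shift both were above 0, at 0.05 and 0.06. Of the 43 genes 27 were lower and 16 higher, with 50.3% of bright genes lower. Thus 1 of 43 fell and 0 rose, where 3.18% fell and 1.48% rose of the 14839 genes above the floor on at least 1 array, called all genes below. Past 1.5-fold under both scalings, POLD3, FEN1, ORC1 and RFC3 were lower (4 of 43, 9.33% of all genes) and 0 were higher (4.20% of all genes). A second bright probe set had the same sign as the first in 7 of the 17 genes that have one.

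After 6 h of recovery from 42 °C most replication genes were lower than in the control after normalization, and as deposited 23 were lower and 20 higher. After normalization 37 of 43 were lower with a median of -0.36 log2 units, against 50.8% of 8817 bright genes with a median of -0.01. As deposited the median was -0.05 against 0.27 over bright genes, so the 43 genes lay 0.35 below the bright genes after normalization and 0.32 below as deposited. All 7 genes of origin firing were lower (median -0.55, and -0.20 as deposited), as were 7 of 8 primase and polymerase genes (-0.53, and -0.24 as deposited) and 5 of 6 MCM2-7 subunits (-0.36, and -0.07 as deposited). The licensing factors (-0.24), the clamp with its loader (-0.22) and RPA (-0.19) were lower by less, and as deposited their medians were 0.10, 0.05 and 0.11. ORC6, POLD3, CDC6, MCM7, LIG1 and RFC1 were the 6 genes that were higher, by 0.12 to 0.39. The second bright probe set had the same sign in 11 of 17 genes.

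Few single genes stood out at 42 °C, 6 h. None of the 43 passed 2-fold under both scalings (0 lower and 0 higher, where 1.93% and 1.99% of all genes passed). Past 1.5-fold GINS4 was lower (1 of 43, 6.21% of all genes) and 0 were higher (7.95% of all genes). After normalization alone GINS4, CDC45, RFC2, POLA2 and CDT1 were lower past 1.5-fold (5 of 43, 9.09% of all genes), a share near that of all genes.

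By 12 h after 42 °C GINS4 fell 2.80-fold, and most genes were lower after normalization but not as deposited (21 lower and 22 higher). The median was -0.20 log2 units, against 0.03 over 8810 bright genes, with 34 of 43 lower, against 45.4% of bright genes. As deposited the medians were 0.01 and 0.22, so the 43 genes lay 0.23 below the bright genes after normalization and 0.21 below as deposited. The deoxynucleotide enzymes RRM1, RRM2 and TYMS were all lower (median -0.39, and -0.21 as deposited). The 8 primase and polymerase genes were lower too (median -0.25), but as deposited their median was -0.05. Of the 43 genes 1 fell and 0 rose, where 1.34% and 1.45% of all genes passed. Past 1.5-fold GINS4, FEN1 and POLA1 were lower (3 of 43, 5.00% of all genes) and 0 were higher (6.34% of all genes). After normalization alone 7 were lower past 1.5-fold (6.28% of all genes), with ORC1, CDC45, POLE and RRM2 in addition.

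Directly after heat at 44 °C most replication genes were higher than in the control, and PRIM2, the large subunit of primase, rose 2.03-fold. The median was 0.29 log2 units over the 43 genes, against 0.09 over 8884 bright genes, with 31 of 43 genes higher (40 as deposited), against 56.9% of bright genes. As deposited the medians were 0.67 and 0.47, so the 43 genes lay 0.20 above the bright genes after normalization and 0.21 above as deposited. Among the roles, 7 of 8 primase and polymerase genes (median 0.40), 6 of 7 licensing factors (0.36) and 5 of 6 MCM2-7 subunits (0.33) were higher. The clamp with its loader was split, with 3 higher and 3 lower (median -0.04, and 0.44 as deposited). In all, 1 of 43 rose (2.39% of all genes) and 0 fell (0.674% of all genes). Past 1.5-fold PRIM2, POLE, RPA2 and LIG1 were higher (4 of 43, 11.1% of all genes) and 0 were lower (3.28% of all genes).

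At 6 h after 44 °C most replication genes were slightly higher than in the control, and none passed 2-fold. Their median was 0.09 log2 units, against 0.07 over 8884 bright genes, and 31 were higher on both scales, against 56.1% of bright genes. As deposited the medians were 0.17 and 0.01, and with a median shift 0.34 and 0.18. All 6 MCM2-7 subunits (0.04 to 0.50) and the 3 RPA subunits (0.05 to 0.45) were higher. Under both scalings 0 of 43 fell and 0 rose, where 2.67% and 1.5% of all genes passed. Past 1.5-fold FEN1 was lower (1 of 43, 9.86% of all genes) and PRIM2 higher (1 of 43, 5.88% of all genes).

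By 12 h after 44 °C FEN1 and POLD3 had fallen, by 2.35-fold and 2.32-fold, while the level of the set as a whole depended on the scaling. FEN1 was at -0.99 log2 units, just short of 2-fold, when the arrays were scaled by a median shift instead. The median of the 43 genes was -0.03, against 0.04 over 8961 bright genes, and as deposited it was -0.35 against -0.29. With a median shift it was 0.10 against 0.16. Of the 43 genes 24 were lower after normalization and 37 as deposited, with 46.7% of bright genes lower after normalization. Thus 2 of 43 fell (3.88% of all genes) and 0 rose (1.72% of all genes). Past 1.5-fold ORC1 and GINS4 were lower as well (4 of 43, 11.8% of all genes), and 0 were higher (5.01% of all genes). The second bright probe set had the same sign in 9 of 17 genes.

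**Figure D2:**
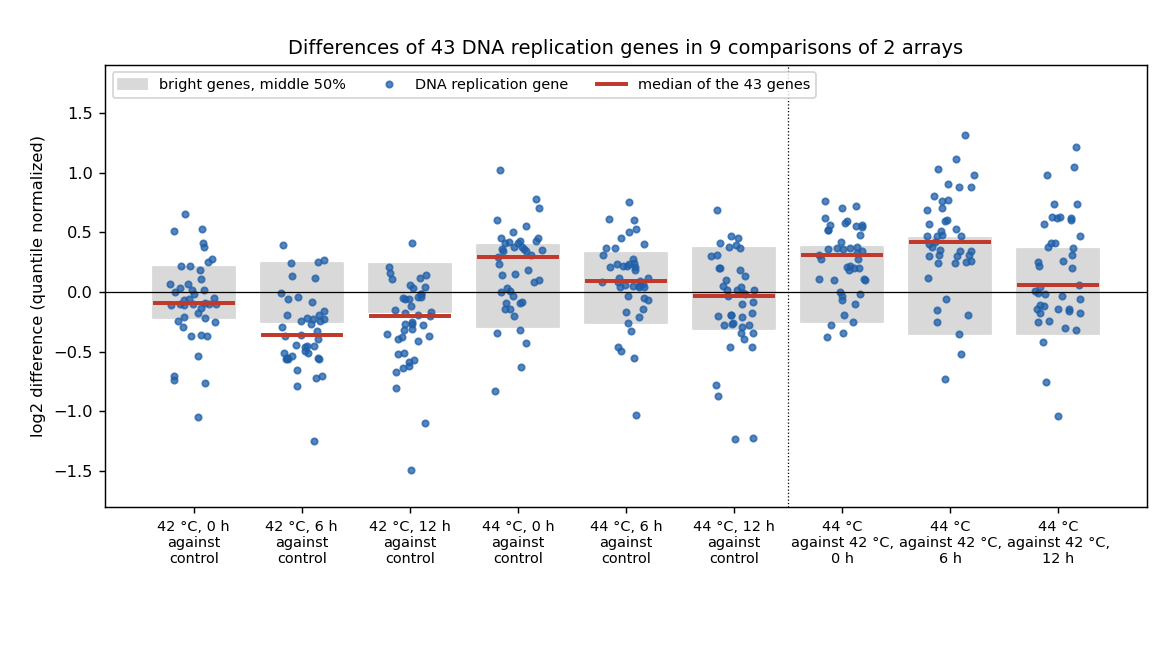
Log2 differences (quantile normalized) of the 43 DNA replication genes in the 6 comparisons of a heated array with the control and the 3 of 44 °C with 42 °C, with the median of the 43 and the spread of the bright genes drawn beside them. The median is lowest at 42 °C, 6 h (-0.36) and highest for 44 °C against 42 °C at 6 h (0.42).

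Between the temperatures at the same time, replication genes were mostly higher after 44 °C than after 42 °C at 0 and 6 h on both scales. At 0 h 33 of 43 genes were higher (59.0% of bright genes), with a median of 0.31, against 0.11 over bright genes. At 6 h 36 of 43 were higher (55.9% of bright genes), with a median of 0.42, against 0.08. At 12 h 24 of 43 were higher (49.8% of bright genes), with a median of 0.06, against 0.00. The 43 genes thus lay 0.21, 0.33 and 0.06 above the bright genes after normalization, and 0.19, 0.43 and 0.16 above them as deposited. As deposited 43, 31 and 12 of the 43 genes were higher at 0, 6 and 12 h, so at 12 h most were lower after 44 °C (median -0.36), with bright genes at -0.52.

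Few genes passed the fold rule between temperatures. At 0 h 0 of 43 were lower and 0 higher past 2-fold (0.613% and 3.05% of all genes). Past 1.5-fold at 0 h CDT1, MCM10, POLD3, POLE and POLE2 were higher (5 of 43, 11.9% of all genes) and 0 were lower (2.37% of all genes). At 6 h 0 were lower and 0 higher past 2-fold (4.71% and 1.69% of all genes), and past 1.5-fold PRIM2, POLE and RFC2 were higher (3 of 43, 5.96% of all genes) and POLD3 lower (1 of 43, 13.0% of all genes). After normalization alone 14 were higher past 1.5-fold at 6 h (15.3% of all genes). These were the helicase genes MCM3, MCM5, MCM6, CDC45, GINS2 and GINS4, the polymerase genes POLA1, POLA2, PRIM2, POLD1 and POLE, and RFC2, ORC3 and E2F1. At 12 h POLD3 was 2.06-fold lower (1 of 43, 4.49% of all genes) and 0 were higher past 2-fold (1.77% of all genes). Past 1.5-fold at 12 h ORC2 and POLD3 were lower (2 of 43, 12.8% of all genes) and E2F1 higher (1 of 43, 5.22% of all genes), and after normalization alone 10 were higher (14.0% of all genes).

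After normalization in 12 genes all 3 arrays at 44 °C lay above all 3 at 42 °C, namely ORC3, MCM4, MCM5, MCM7, CDC45, GINS2, POLA1, POLE, RFC5, RPA1, RPA2 and RRM2. As deposited MCM5, CDC45, POLE and RRM2 of these kept the order, and TYMS had it too. The opposite order occurred in 0 of the 43 on either scale. The share of all genes with either order was not counted, so these counts are not read as particular to the 43 genes. A second bright probe set had this order too in MCM5, MCM7 and RPA1, and did not in MCM4, RFC5 and RRM2. The bright probe sets of MCM4 ranked 3 and 4 by level had it, and that of RFC5 ranked 3 did not. ORC1, GINS1, GINS4, RFC3 and FEN1 were below the control on all 6 heated arrays, of which ORC1 and FEN1 also as deposited. MCM7 and LIG1 were above it on all 6, and as deposited this held for MCM7 and RPA2. All 6 differences share the 1 control array, and the share of all genes on 1 side of it throughout was not counted.

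The values by gene follow, in order of role, and each set of 3 values is for 0, 6 and 12 h. The scaling decides which array is lowest in some of the genes whose values on every array are given below. As deposited it was 44 °C, 12 h for CDT1, MCM3, MCM6, RFC2, RPA1 and LIG1. It was 42 °C, 0 h for CDC6 and GINS2, and the control for RPA2. Among the licensing factors, ORC1, a subunit of ORC whose protein is cell cycle regulated in human cells, read 234, 258 and 211 units at 44 °C and 216, 287 and 228 at 42 °C, against 362 in the control. ORC3, another ORC subunit, read 546, 614 and 555 at 44 °C and 508, 312 and 464 at 42 °C, against 426 in the control. ORC1 was thus below the control throughout, while ORC3 was below it at 42 °C, 6 h only. CDT1, which helps load the MCM helicase, read 675, 424 and 416 at 44 °C and 447, 305 and 322 at 42 °C, against 478 in the control. It was lowest at 6 and 12 h after 42 °C, on a probe set of a type (suffix _x_at) that may bind related transcripts, and a second CDT1 probe set was above its control value on all 6 heated arrays. CDC6, which loads the helicase with CDT1, read 1316, 1234 and 1109.6 at 44 °C and 919, 1412 and 833 at 42 °C, against 1188 in the control. Its second probe set was also lowest at 42 °C, 12 h. ORC2, ORC5 and ORC6 stayed between -0.41 and 0.51 log2 units of the control.

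Of the MCM2-7 subunits, which form the ring of the helicase, MCM5 read 1229, 1076 and 1138 at 44 °C and 884, 633 and 741 at 42 °C, against 922 in the control. Its second probe set read 404, 445 and 347 at 44 °C and 333, 194 and 239 at 42 °C, against 260.3 in the control, so both were lowest at 42 °C, 6 h. MCM3 read 3623, 3449 and 2427 at 44 °C and 2792, 2299 and 2889 at 42 °C, against 2964 in the control, and it too was lowest at 42 °C, 6 h and highest at 44 °C, 0 h. MCM6 read 2473, 2589 and 2067 at 44 °C and 2482, 1706 and 2272 at 42 °C, against 2518 in the control, with 42 °C, 6 h again the lowest. MCM7 had another course and was above the control (1235 units) on every heated array, at 1285 to 1808. MCM2 and MCM4 stayed between -0.36 and 0.36 log2 units of the control.

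Among the factors that activate the helicase, CDC45, part of the active helicase, read 1857, 1554 and 1481 at 44 °C and 1259.6, 847 and 977 at 42 °C, against 1466 in the control. All arrays at 44 °C lay above the control and all at 42 °C below it, though at 44 °C, 12 h by 0.02 log2 units only, and as deposited that array was on the other side (-0.21). GINS2, a subunit of the GINS complex, read 1416, 1202 and 1191 at 44 °C and 949.8, 709 and 859 at 42 °C, against 1039 in the control, an order of arrays like that of CDC45. GINS4, of the same complex, read 289, 217 and 174 at 44 °C and 295, 134 and 114 at 42 °C, against 319 in the control. GINS4 fell at 42 °C, 12 h, and at 42 °C, 6 h it was 2.37-fold lower after normalization, with -0.98 log2 units as deposited. The other probe sets of GINS4 were below 4 times the floor, so its course rests on 1 probe set. CDC7, MCM10, GINS1 and GINS3 ranged from -0.55 to 0.45 log2 units.

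Among the primase and polymerase genes, PRIM2 and POLD3 spanned 1.57 and 1.48 log2 units over the 7 arrays, and 1.59 and 2.21 as deposited. PRIM2 read 892, 742 and 545 at 44 °C and 691, 299.9 and 353 at 42 °C, against 440.0 in the control. It was high at 44 °C, 0 h, and at 6 h it was 2.47-fold higher after 44 °C than after 42 °C, or 1.87-fold as deposited. PRIM2 has 1 probe set here and a listed pseudogene (PRIM2BP) whose transcripts it may bind. POLD3 read 256, 251 and 149 at 44 °C and 167, 416 and 306 at 42 °C, against 346 in the control. It was low directly after 42 °C and above the control 6 h later, and after 44 °C it was below the control throughout and lowest at 12 h. The second probe set of POLD3 was below 4 times the floor.

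POLE, the catalytic subunit of DNA polymerase epsilon, read 249, 220.0 and 194 at 44 °C and 147, 102 and 93.6 at 42 °C, against 145 in the control. All arrays at 44 °C were above the control, though at 12 h not as deposited (-0.05 log2 units), and those at 6 and 12 h after 42 °C were below it. POLA1, the catalytic subunit of DNA polymerase alpha, read 429, 427 and 365 at 44 °C and 339, 229 and 186 at 42 °C, against 322 in the control. Its lowest value was at 42 °C, 12 h and its values at 44 °C were above the control, except as deposited at 12 h (-0.27 log2 units). POLA2, PRIM1, POLD1 and POLE2 ranged from -0.70 to 0.43 log2 units.

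**Figure D3:**
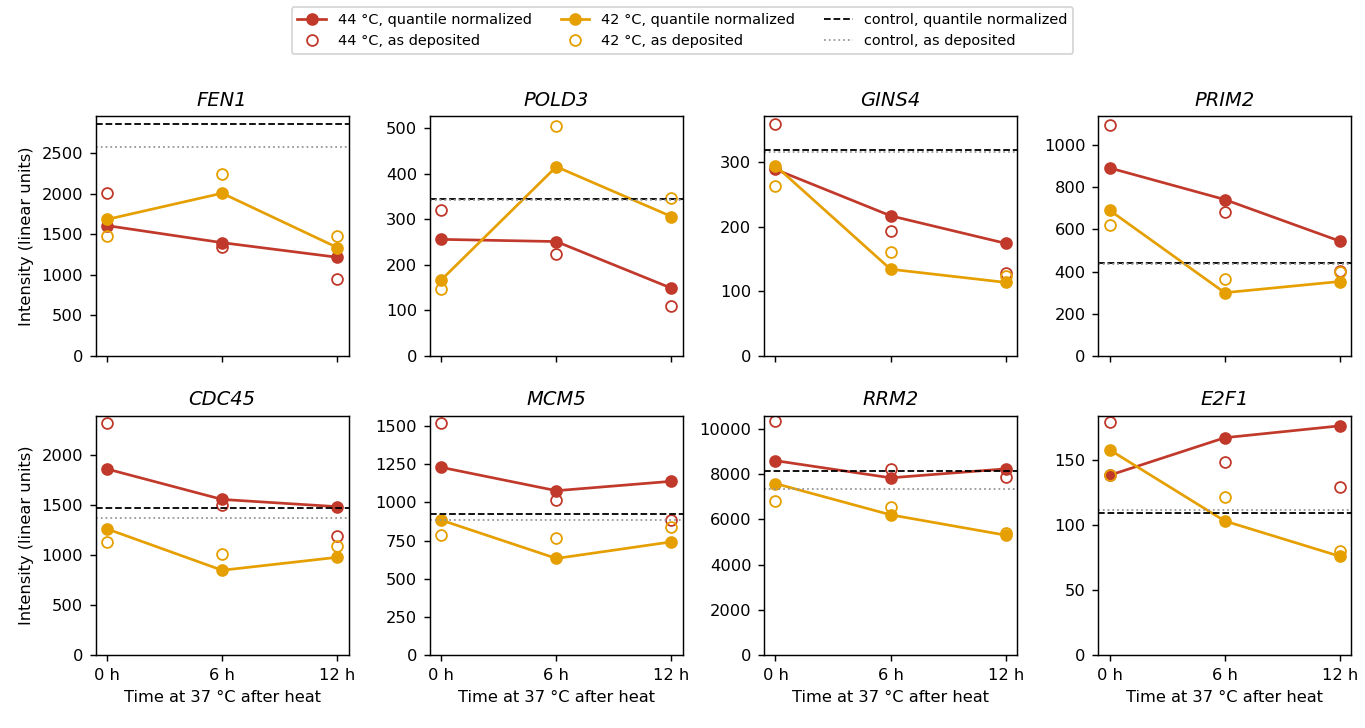
Intensity (linear units) of 8 of the genes at 0, 6 and 12 h after heat at 44 °C or 42 °C, quantile normalized (filled points) and as deposited (open points), with the control as a horizontal line on each scale. FEN1 lies below the control at every point, GINS4 is lowest at 42 °C, 12 h (114 units) and PRIM2 highest at 44 °C, 0 h (892 units).

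PCNA, the sliding clamp, read 5425, 5772 and 4130.1 at 44 °C and 5022, 4850.1 and 5172 at 42 °C, against 5410.1 in the control, a narrow range. RFC2, a subunit of the clamp loader, read 1583, 1449 and 974 at 44 °C and 1226, 710.3 and 988 at 42 °C, against 1172 in the control. It was lowest at 42 °C, 6 h, and its second probe set was lowest on the same array (477 units, against 605 in the control). RFC3, another loader subunit, read 1096, 1162 and 1096 at 44 °C and 855, 1379.7 and 1205 at 42 °C, against 1386 in the control. It was lowest at 42 °C, 0 h, as was its second probe set (537 units, against 893 in the control). RFC1, RFC4 and RFC5 ranged from -0.44 to 0.28 log2 units.

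RPA coats single-stranded DNA at the fork. RPA2, its middle subunit, read 1181, 989 and 988 at 44 °C and 823, 693 and 798 at 42 °C, against 724 in the control. RPA1, the large subunit, read 2665, 2223 and 2212 at 44 °C and 2191, 1888 and 1905 at 42 °C, against 2149 in the control. Both had every array at 44 °C above every array at 42 °C, by small margins in RPA1. RPA3, the small subunit, stayed between -0.19 and 0.12 log2 units of the control.

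FEN1, the nuclease that trims the flaps of Okazaki fragments on the lagging strand, was with ORC1 below the control on all heated arrays on both scales. It read 1609, 1399 and 1218 units at 44 °C and 1686, 2009 and 1339 at 42 °C, against 2862 in the control. At 44 °C, 6 h it was 2.05-fold lower and at 42 °C, 12 h 2.14-fold lower after normalization, with -0.94 and -0.80 log2 units as deposited, so neither passed both scalings. The second FEN1 probe set read 799, 908 and 927 at 44 °C and 1152, 1693 and 938 at 42 °C, against 1612 in the control. It was lower on every heated array except 42 °C, 6 h, where it was slightly higher. A pseudogene (FEN1P1) is listed for FEN1, and its share in the signal was not tested. Pseudogenes are listed as well for ORC1, PCNA, RFC3, RFC5, RPA2, RPA3, RRM2 and TYMS. LIG1, the ligase that seals the fragments, read 305, 261 and 216 at 44 °C and 262, 221 and 207 at 42 °C, against 202 in the control. It stood above the control throughout, except as deposited at 44 °C, 12 h (-0.35 log2 units).

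The deoxynucleotide enzymes were lowest late after 42 °C. RRM2, the subunit of ribonucleotide reductase that is made in S phase, read 8588, 7831 and 8226 at 44 °C and 7577, 6198 and 5299 at 42 °C, against 8129.7 in the control. TYMS, which makes thymidylate, read 4437, 5323 and 5618 at 44 °C and 5291, 4188 and 3772 at 42 °C, against 4903 in the control. Both were lowest at 42 °C, 12 h, as were RRM1, the large subunit of the reductase (4710.2, against 6178 in the control), and the second probe set of RRM2 (2714, against 5459.7). The second RRM2 probe set was below its control value on all 6 heated arrays, while the first was above it at 44 °C, 0 and 12 h. E2F1, an activator of many of these genes, read 138, 167 and 176 at 44 °C and 158, 103 and 75.9 at 42 °C, against 109 in the control. It was 2.32-fold higher after 44 °C than after 42 °C at 12 h (0.69 log2 units as deposited), with 75.9 units at 42 °C being below 4 times the floor.

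Medians of the genes with and without an E2F-type promoter match are given here as a description. At 42 °C, 6 h the median was -0.41 over the 20 genes with a match and -0.33 over the 17 without. At 42 °C, 12 h it was -0.20 with a match and -0.27 without, and at 44 °C, 0 h 0.32 with a match and 0.23 without. The widest gaps were for 44 °C against 42 °C, with 0.35 and 0.20 at 0 h and 0.16 and -0.01 at 12 h. FEN1, which fell at 44 °C, 12 h, had no match in the window shown above.

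Other genes of replication, a list of 40 of which 39 had a value, moved less at 42 °C, 6 h after normalization. Their median was -0.16 log2 units (0.12 as deposited), with 23 lower and 15 higher. This contrast depends on how the lists were divided, which was done with earlier results of these data known. The list holds subunits of complexes described above, and the medians by role leave these out. At 42 °C, 6 h ORC4 was at 0.56, POLE4 at 0.35, POLE3 at 0.11, POLD2 at 0 and POLD4 at -0.17. Other divisions were not tested. None of the 39 passed 2-fold there (1.93% of all genes fell and 1.99% rose). In the comparisons with the control 0 of the 39 rose (1.45% to 2.39% of all genes). At 44 °C, 6 h 1 of 39 fell (2.67% of all genes) and at 44 °C, 12 h 2 of 39 (3.88%). At 44 °C, 0 h (0.674% of all genes) and on the arrays at 42 °C (1.34% to 3.18%) 0 fell. TICRR, a factor for origin firing, fell 2.23-fold at 44 °C, 6 h and at least 4.35-fold at 44 °C, 12 h, where it was at the floor. CLSPN, an adaptor of the replication checkpoint, fell 2.44-fold at 44 °C, 12 h. In the control TICRR read 92.8 units and CLSPN 168.9. After 42 °C TICRR was at -0.88, 0.38 and -0.79 log2 units at 0, 6 and 12 h, and CLSPN at 0, -0.4 and -0.7. The median of the list was -0.07 at 42 °C, 12 h, and at 44 °C it was 0.05, -0.02 and -0.02 at 0, 6 and 12 h.

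Mitosis genes, a list of 30, stood on the other side of the control from the replication genes after recovery from 42 °C on the normalized scale. At 42 °C, 6 h their median was 0.20 log2 units with 25 higher, against -0.36 for the replication genes. At 42 °C, 12 h it was 0.29 with 22 higher, against -0.20. As deposited these mitosis medians were 0.43 and 0.50, with bright genes at 0.27 and 0.22. Between temperatures at 6 h the mitosis genes were lower after 44 °C than after 42 °C (median -0.42, 26 of 30 lower), where the replication genes were mostly higher (0.42). Against the control, ASPM, a spindle pole protein, was the 1 mitosis gene past 2-fold. It fell 2.02-fold at 44 °C, 12 h (1 of 30, 3.88% of all genes). In the other comparisons with the control 0 of 30 fell (0.674% to 3.18% of all genes), and in none did any rise (1.45% to 2.39%).

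**Figure D4:**
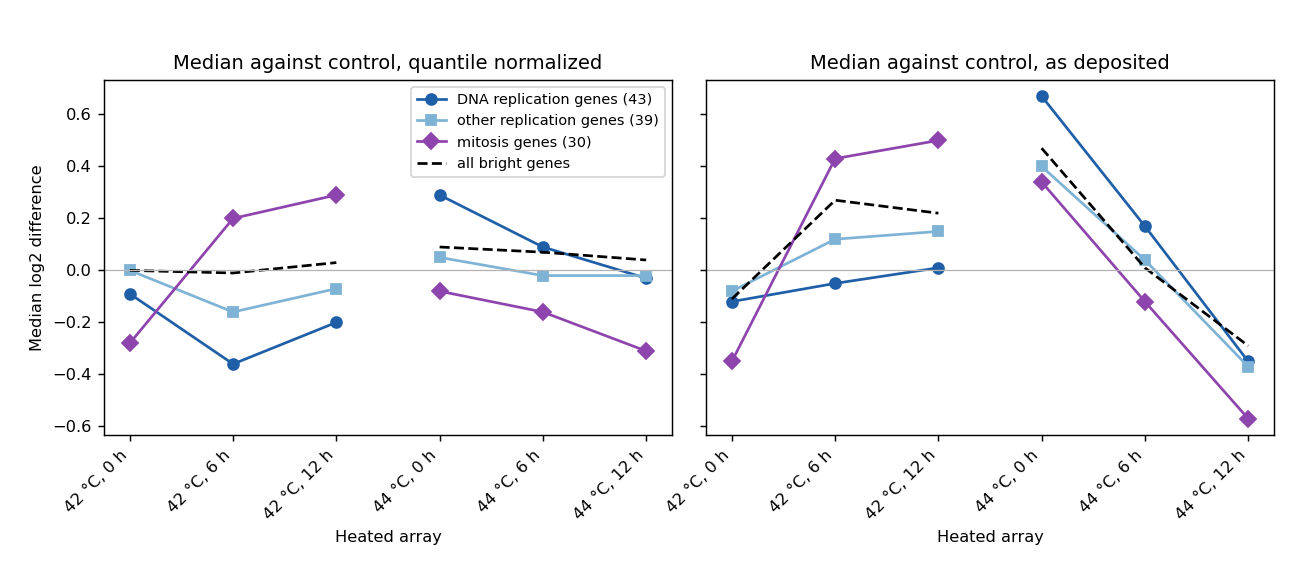
Median log2 difference of the 43 DNA replication genes, 39 other replication genes, 30 mitosis genes and all bright genes in the 6 comparisons with the control, after quantile normalization and as deposited in separate panels. At 42 °C, 6 h the replication genes (-0.36, and -0.05 as deposited) lie below the bright genes and the mitosis genes (0.20, and 0.43 as deposited) above them on both scales.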

How the data were processed

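The data are intensities of probe sets, deposited by the authors, for 7 Affymetrix U133 Plus 2.0 arrays, 1 per condition, made per the labels from 5 µg of total RNA; how probes were summarised into these intensity values is not stated in the labels. Their number limits the precision. All columns were used (0 left out). Of 54675 probe sets 41097 listed 1 gene, 1801 several and 11777 were not listed. Values were quantile normalized, set to at least the floor of 21.35 and taken as log2 with numpy 2.4.6 and pandas 2.3.3 in Python 3.11.15. The brightest single-gene probe set stood for a gene. The scaling was tested on simulated data. Every array was compared with the control, and 44 °C with 42 °C at each time, without tests. Values on every array are given for genes past 2-fold against the control and the 2 genes of each role with the widest range; the others so given (ORC1, CDC6, MCM6, GINS2, POLE, POLA1 and PCNA) were added after their values were seen. Members and lists (other replication, mitosis, G1/S and homologous recombination genes, and cell type markers) were chosen with earlier results of these data known. Alternatives were the deposited scale, a median shift, no floor, bright genes only, and other probe sets.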

Additional observations from a re-analysis of the deposited data

Results flagged for a closer look

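In 5 genes all arrays at 44 °C lay above the control and all arrays at 42 °C below it, and this difference was not tested. The share of all genes with this split was not counted. The mean log2 value at 44 °C minus that at 42 °C was 0.68 for CDC45, 0.62 for MCM5, 0.60 for GINS2, 0.36 for MCM4 and 0.27 for RFC5. As deposited MCM5 alone of these 5 kept the split, by 0.01 log2 units at 44 °C, 12 h, and with a median shift it lost it, at 0.01 above the control at 42 °C, 0 h. The second probe sets of MCM5, MCM4 and RFC5 were above their control values at 42 °C, 0 h, by 0.36, 0.05 and 0.13 log2 units. That of MCM4 was below its control value on every array at 44 °C. With a median shift CDC45 and GINS2 kept the split, and MCM2 and POLE had it as well. RRM2 had it as deposited. In CDC45, MCM4 and RFC5 the array nearest to the control differed from it by 0.02 log2 units or less. In MCM5 and GINS2 the nearest array was 42 °C, 0 h, at -0.06 and -0.13. In each of the 5 genes this is under the spread between probe sets, which was at least 0.202.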

How the results depend on the processing

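Between-array scaling moved the values most. As deposited, the median of the 43 genes was -0.05 at 42 °C, 6 h, 0.01 at 42 °C, 12 h, 0.67 at 44 °C, 0 h, -0.35 at 44 °C, 12 h, and 0.79 and -0.36 for 44 °C against 42 °C at 0 and 12 h. As deposited, 3 genes passed 2-fold higher at 44 °C, 0 h and 4 lower at 44 °C, 12 h, and for 44 °C against 42 °C 9 were higher at 0 h, 1 lower at 6 h and 2 lower at 12 h. With a median shift the median at 44 °C, 6 h was 0.34 (bright genes 0.18), and 1 gene was lower at 44 °C, 12 h, without FEN1. With the mean of all probe sets, which lets dim ones in, 2 genes were higher at 44 °C, 0 h, 1 higher at 44 °C, 6 h, 1 lower and 1 higher at 44 °C, 12 h, and for 44 °C against 42 °C 2 were higher at 0 h, 1 higher at 6 h and 0 lower at 12 h. With the second probe set of 24 genes the medians were -0.15 at 42 °C, 6 h and 0.04 for 44 °C against 42 °C at 0 h. With it 1 gene was lower and 1 higher at 42 °C, 6 h, 0 lower at 42 °C, 12 h, 0 lower and 1 higher at 44 °C, 12 h, and for 44 °C against 42 °C 1 lower at 6 h and 0 lower at 12 h. The cause of these moves was not tested. Of the 27 values each (medians and counts), 16 stayed close to those reported as deposited, 25 under the median shift, 20 when probe sets were averaged and 18 with the second probe set. Leaving out the floor, or dim genes, could not change a value, since all 43 genes lie above the floor and were counted as bright. No paired analysis was possible because each condition has 1 array.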

Other observations

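Of 22 regulators of the G1/S transition, 2 fell at 42 °C, 0 h (3.18% of all genes), 1 at 42 °C, 12 h (1.34%), 1 at 44 °C, 6 h (2.67%) and 2 at 44 °C, 12 h (3.88%). None fell at 42 °C, 6 h or 44 °C, 0 h (0 of 22, 1.93% and 0.674% of all genes). In the comparisons with the control 0 of the 22 rose (1.45% to 2.39% of all genes). Their list median was between -0.39 and -0.16 log2 units in all 6 comparisons with the control (between -0.65 and 0.32 as deposited). E2F8, a repressor of the E2F family, read 287, 373 and 320.1 units at 44 °C and 185, 311 and 210.4 at 42 °C, against 489 in the control. It fell 2.65-fold at 42 °C, 0 h and 2.33-fold at 42 °C, 12 h. CCNE2, a cyclin of the G1/S transition, read 702, 673 and 621 at 44 °C and 427, 641 and 476 at 42 °C, against 906 in the control, and it fell 2.12-fold at 42 °C, 0 h. CDK6, a kinase that acts on the retinoblastoma protein, read 1303, 1156 and 885 at 44 °C and 2216, 2455 and 2037 at 42 °C, against 2572 in the control. It fell 2.22-fold at 44 °C, 6 h and 2.91-fold at 44 °C, 12 h. RBL1, a relative of the retinoblastoma protein, fell 2.34-fold at 44 °C, 12 h, at 108 units, against 253 in the control. CCNE1, the other cyclin E, was 2.71-fold higher after 44 °C than after 42 °C at 6 h (1 of 22, 1.69% of all genes). It read 115 units at 44 °C and 42.5 at 42 °C, which is below 4 times the floor, as was the control at 69.9. In the same comparison CDK6 was 2.12-fold lower (1 of 22, 4.71% of all genes).

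Genes of homologous recombination (18 with a value) had list medians of -0.24, -0.21 and -0.30 log2 units at 0, 6 and 12 h after 42 °C and -0.05, -0.15 and -0.41 after 44 °C. As deposited these were -0.39, 0.08 and -0.11 after 42 °C and 0.29, -0.27 and -0.73 after 44 °C.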
